A study of Homo sapiens with 12 samples.

Results

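The 10 genes described here encode the core of transforming growth factor β (TGF-β) signalling: the ligands TGFB1 and TGFB2 with LTBP1, which holds the latent ligand in the matrix, the receptors TGFBR1, TGFBR2 and TGFBR3, the signal carriers SMAD2, SMAD3 and SMAD4, and the adaptor SPTBN1. They were chosen by gene name, and all 10 were found among the 25733 genes of the deposited table. RNA sequencing was done on HCT116, a human colon cancer cell line, in 4 groups of 3 libraries each, to ask how ammonia, given as NH4Cl, bears on TGF-β signalling. Control cells had no treatment, and a second group had TGF-β at 200 pM for 1 h. Another group had NH4Cl at 10 mM for 24 h, and the last had NH4Cl at 10 mM for 23 h followed by TGF-β at 200 pM for 1 h. HCT116 is 1 established line, and in a bulk library fewer cells with a transcript and less of it per cell cannot be told apart. The labels number the replicates 1 to 3 but do not say that they are separate cultures, so every p-value below measures the spread between these libraries.

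As background, active TGF-β ligand brings the type II receptor TGFBR2 together with the type I receptor TGFBR1, which phosphorylates SMAD2 and SMAD3. These join SMAD4 and enter the nucleus, where they set the transcription of target genes, and the spectrin SPTBN1 serves as an adaptor for SMAD3 and SMAD4. In the colon the pathway restrains epithelial growth, and colon tumours often carry mutations in its receptors or SMADs.

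Levels are given as FPKM, a read count scaled to the length of a gene's exons and to the size of the library, which allows genes of different length to be compared. Over the 12 libraries the reads on genes had a median of 15486002. In the order of replicates 1, 2 and 3, reads were 16649040, 16701897 and 15299664 in control cells and 18193486, 14831967 and 15074796 with TGF-β. They were 14957632, 15881355 and 14932178 with NH4Cl, and 15672341, 14808913 and 17621458 with both agents. Of the 11 markers of a colon epithelial line, 9 had a mean of at least 1 FPKM, with a summed level of 2287 to 3430 FPKM per library, and KRT18 was the most abundant at 876 FPKM. The epithelial surface protein EPCAM had 254 FPKM and the intestinal transcription factor CDX2 13.6 FPKM, while the differentiation markers KRT20 and CEACAM5 had 0.190 and 0.0956 FPKM. The 6 fibroblast markers summed to 8.02 to 11.2 FPKM, most of it LUM at 7.79 FPKM, and of the collagens COL1A1 was at 1.68 FPKM, COL1A2 at 0.00653 and COL3A1 at 0.00745 FPKM. The 4 endothelial markers summed to 1.58 to 6.84 FPKM, led by VWF at 3.01 FPKM, with PECAM1 at 0.0348 and KDR at 0.0160 FPKM. For immune cells 2 of 5 markers were analysed here and LYZ led at 1.12 FPKM. The levels are those of an epithelial line, as labelled, apart from the low KRT20 and CEACAM5.

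The members spanned a wide range of levels. TGFB1 had the highest mean over the 12 libraries, 57.8 FPKM, which was 355 times that of SMAD4 at 0.163 FPKM. Between them, in falling order of mean FPKM, came SPTBN1 at 20.0, SMAD3 at 15.1, TGFBR1 at 12.1, TGFBR2 at 9.45, SMAD2 at 1.62, TGFB2 at 1.60, TGFBR3 at 1.09 and LTBP1 at 0.894 FPKM. TGFB1 and SMAD4 stood clear of their neighbours in every library, as did TGFBR2 above SMAD2, and TGFB2 above TGFBR3. The library ranges of SPTBN1 and SMAD3 overlapped, as did those of SMAD3 and TGFBR1, and of TGFBR1 and TGFBR2. Those of SMAD2 and TGFB2, and of TGFBR3 and LTBP1, overlapped as well. Ranges across libraries alone thus do not set these neighbours apart. Within a library, though, SPTBN1 was above SMAD3 and SMAD3 above TGFBR1 in 12 of 12, TGFBR1 above TGFBR2 in 10 of 12 and TGFBR3 above LTBP1 in 11 of 12, while SMAD2 was above TGFB2 in 6 of 12.

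**Figure D1:**
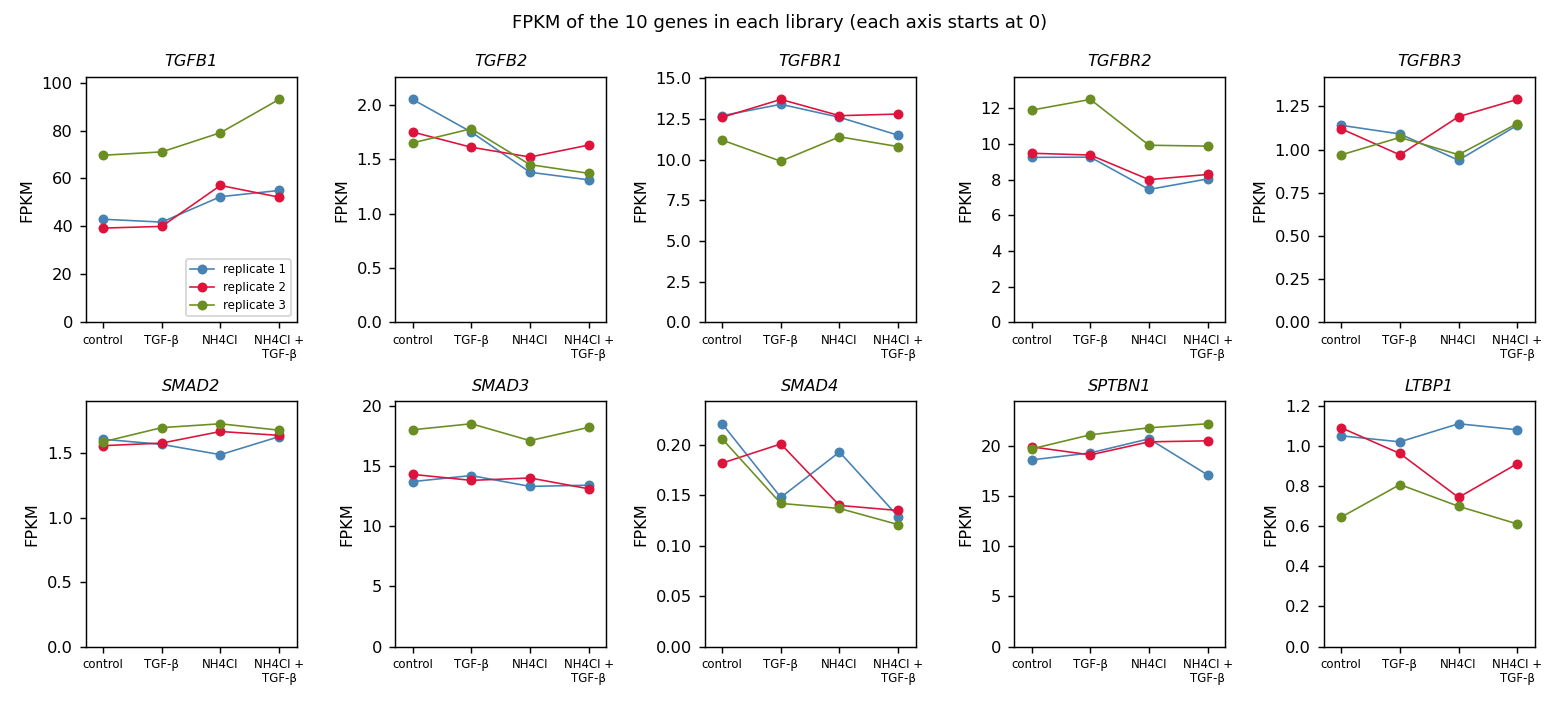
FPKM of each of the 10 genes (vertical axis, 1 panel per gene) in the 4 groups (horizontal axis), with 1 point per library and lines joining libraries of the same replicate number. TGFB1 lies between 39.3 and 93.0 FPKM and is highest in replicate 3 of every group, while SMAD4 stays between 0.121 and 0.221 FPKM.

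Replicate 3 stood apart for several of these genes, a difference that is present in all 4 groups and so does not separate them. On the log2(FPKM + 1) scale TGFB1 was 0.71 higher in replicate 3 than in the mean of replicates 1 and 2, averaged over groups, and 0.52 to 0.78 higher in single groups. The median absolute difference of all genes tested was 0.159, and that of TGFB1 lay at percentile 97.0. SMAD3 and TGFBR2 were also highest in replicate 3 in 4 of 4 groups, by 0.37 and 0.32 on average, while TGFBR1 and LTBP1 were lowest there in 4 of 4, at -0.22 and -0.24. What sets replicate 3 apart was not tested. Because replicates of the same number moved together across groups, each comparison is given without and with the replicate number as a block, a term that compares libraries of the same number with each other.

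Tests were made with limma on log2(FPKM + 1) over the 12341 genes with a mean of at least 1 FPKM in the 12 libraries, and a gene is called when its adjusted p is below 0.05. The 1 that is added before the logarithm makes fold changes of genes near or under 1 FPKM smaller than their ratios of FPKM, so ratios of FPKM stand beside some of them. The filter kept 8 of the 10 members, and LTBP1 and SMAD4 fell under it. The first comparison asks what TGF-β alone did to the RNA of its own pathway within 1 h. No member was called by limma without the block (0 of 8, and 0 of 8 at an unadjusted p below 0.05), when 0 of 12341 genes were called in all, a share of 0%, and 103 (0.835%) had an unadjusted p below 0.05. With the block the members called were again 0 of 8, with 0 at an unadjusted p below 0.05. Of all genes 1 was called (0.00810%) and 422 (3.42%) had an unadjusted p below 0.05. The 8 fold changes lay between -0.05 for TGFB2 and 0.03 for SPTBN1 on the log2 scale, each with an adjusted p of 1.000 by limma in both fits. With the block the 95% interval ran from -0.14 to 0.14 for TGFB1, from -0.07 to 0.11 for TGFBR2 and from -0.08 to 0.10 for SMAD3, so larger changes of these 3 within 1 h lie outside the intervals of that fit. Without the block the intervals were wider, -0.66 to 0.67, -0.29 to 0.33 and -0.34 to 0.36.

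The comparisons with NH4Cl ask what 24 h of ammonium did to the same genes, and they gave a different picture for 3 members. With the block TGFB1 rose and TGFBR2 and TGFB2 fell, when the NH4Cl effect was averaged over cells with and without TGF-β. By limma this is 3 of 8 members (37.5%), against 3830 of all genes (31.0%), so the share is near that of all genes and says nothing particular about the members. Without the block 0 of 8 members were called, against 758 of all genes (6.14%), and 2 of 8 had an unadjusted p below 0.05, against 2574 (20.9%). The median absolute fold change was 0.0514 for the 8 members and 0.0859 for all genes on the log2 scale. The calls for these members thus depend on the block. Marker sums also differed with NH4Cl, 2 being higher and 2 lower. In the order control, TGF-β, NH4Cl and both agents, the endothelial sum had means of 2.62, 2.63, 3.86 and 4.11 FPKM and the fibroblast sum of 9.04, 8.98, 10.4 and 10.3 FPKM. The immune sum had means of 1.40, 1.48, 1.09 and 1.14 FPKM and the epithelial sum of 2760, 2793, 2503 and 2636 FPKM. Among the endothelial and fibroblast markers PECAM1, KDR, COL1A2, COL3A1 and DCN were below 0.1 FPKM in every library, whereas VWF, LUM and COL1A1 had means above 1 FPKM. The part of these sums in the results was not tested.

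In the single comparisons the pattern was the same for TGFB1 and TGFBR2. For NH4Cl against control limma called 0 of 8 members without the block, beside 0.381% of all genes, and 2 of 8 with it, beside 13.6%. Without the block 1 member had an unadjusted p below 0.05, beside 10.8% of all genes. For both agents against control the counts were 0 of 8 beside 0.948% of all genes, with 1 at an unadjusted p below 0.05 beside 13.1%, and 2 of 8 beside 18.4% with the block. For both agents against TGF-β alone they were 0 of 8 beside 1.03% of all genes, with 0 at an unadjusted p below 0.05 beside 13.3%, and 2 of 8 beside 18.8% with the block. With TPM scaling and no block fewer of all genes were called, 37, 54 and 58 in the same order against 47, 117 and 127, with 0 of 8 members in each. Without replicate 1 the block gave 0 of 8 in all 3 of these comparisons, and without replicate 2 it gave 0, 1 and 1. These comparisons share libraries, so they do not support each other independently. TGF-β in NH4Cl-treated cells gave 0 of 8 members by limma without the block (0% of all genes) and 0 of 8 with it (0.00810%), with 0 members at an unadjusted p below 0.05 in each, beside 1.34% of all genes without the block and 7.12% with it. The interaction, which asks whether the effect of TGF-β differed with NH4Cl, gave 0 of 8 members and 0% of all genes in both fits, with 0 members and 115 of all genes at an unadjusted p below 0.05 without the block and 0 and 537 with it.

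TGFB1 (ENSG00000105329, GRCh38 chr19:41301587-41353911, minus strand) encodes the main TGF-β ligand. In replicates 1, 2 and 3 its level was 43.0, 39.3 and 69.7 FPKM in control cells and 41.8, 40.0 and 71.1 FPKM with TGF-β. It was 52.4, 57.1 and 79.1 FPKM with NH4Cl and 55.0, 52.2 and 93.0 FPKM with both agents. The groups overlap because replicate 3 is high in each, but within a replicate number every library with NH4Cl is above its partner without it. Group means were 50.7 ± 16.6, 50.9 ± 17.5, 62.9 ± 14.2 and 66.7 ± 22.8 FPKM (SD, n = 3), in the same order. The ratio of means was 1.24 for NH4Cl against control and 1.31 for both agents against TGF-β alone. Averaged over TGF-β, the log2 fold change was 0.36, and TGFB1 was higher with NH4Cl in 6 of 6 pairs, by 0.18 to 0.53. Without the block its 95% interval was -0.11 to 0.83 and the adjusted p by limma 0.382. With the block the interval was 0.26 to 0.46 and the adjusted p 3.57e-04, and leaving out any 1 replicate number kept it at or below 0.0147. Without replicate 3 and without the block the adjusted p was 9.46e-04, in an alternative chosen after seeing the data. The value rests on 1964 to 5113 reads per library. Of the exon bases of TGFB1 6.64% are shared with any other gene, and HNRNPUL1 on the other strand shares the most.

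TGFB2 (ENSG00000092969, chr1:218346235-218444619, plus strand) encodes a second ligand and had few reads, 108 to 179 per library. Its level was 2.05, 1.75 and 1.65 FPKM in control cells, 1.75, 1.61 and 1.78 with TGF-β, 1.38, 1.52 and 1.45 with NH4Cl, and 1.31, 1.63 and 1.37 with both agents. All 3 libraries with NH4Cl alone lie below all 3 controls, and so do those with both agents, but libraries with both agents overlap with those of TGF-β alone. Group means were 1.82 ± 0.209, 1.71 ± 0.0895, 1.45 ± 0.0689 and 1.44 ± 0.167 FPKM (SD, n = 3). The ratio of means was 0.798 for NH4Cl against control and 0.838 for both agents against TGF-β alone. Averaged over TGF-β, the NH4Cl effect was -0.18 on the log2 scale, lower in 5 of 6 pairs, and -0.27 with a pseudocount of 0.1. The adjusted p by limma was 0.0914 without the block and 0.0366 with it. The call is lost with the block when libraries are scaled to 1 sum (adjusted p 0.0501) or no filter is used (0.0830), and in 3 of 3 fits that leave out 1 replicate number, where it is 0.0735 to 0.288. Of the exon bases of TGFB2 26.6% are shared with any other gene, and TGFB2-OT1 shares the most. The remaining ligand, TGFB3, was listed at a mean of 0.274 FPKM.

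LTBP1 (ENSG00000049323, chr2:32946972-33399509, plus strand), the latent TGF-β binding protein, was under the filter. Its level was 1.05, 1.09 and 0.645 FPKM in control cells, 1.02, 0.962 and 0.807 with TGF-β, 1.11, 0.743 and 0.699 with NH4Cl, and 1.08, 0.911 and 0.611 with both agents. The 4 groups overlap fully, with 70 to 139 reads per library. Its relatives LTBP3 and LTBP4 were far more abundant, at 28.9 and 41.1 FPKM.

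Among the 24 listed genes for ligands and their activation, 17 were tested. For NH4Cl averaged over TGF-β, limma called 8 with the block, 6 higher and 2 lower, and 0 without it, with 3 at an unadjusted p below 0.05. Of all genes 31.0% were called with the block and 6.14% without it, where 20.9% had an unadjusted p below 0.05. The median fold change of the 17 was 0.04 on the log2 scale. The largest of the calls were INHBE, an inhibin beta subunit, at 0.45 (adjusted p 7.52e-04 with the block, 0.474 without), TGFB1, and LTBP3 at 0.29 (2.82e-04 and 0.162). INHBE was higher with NH4Cl in 6 of 6 pairs, and so was LTBP3. By level BMP4, a ligand of the related BMP branch, led the list at 127 FPKM.

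Start-site sequences of the 3 members called with the block are shown because these members moved with the same agent. They come from RefSeq (GRCh38.p14), 250 bases before to 50 after the start, and 10 of 10 members had an entry. The RefSeq starts lie 11 bases before the GENCODE gene start for TGFB1, 146 for TGFBR2 and 899 for TGFB2. The motifs searched on both strands were the AP-1 site TGANTCA, the palindromic SMAD box GTCTAGAC, the E-box CACGTG and the GC box GGGCGG, and capitals mark the matches. No motif searched overlaps with another in its matches here.
TGFB1, chr19:41353873-41354172, minus strand: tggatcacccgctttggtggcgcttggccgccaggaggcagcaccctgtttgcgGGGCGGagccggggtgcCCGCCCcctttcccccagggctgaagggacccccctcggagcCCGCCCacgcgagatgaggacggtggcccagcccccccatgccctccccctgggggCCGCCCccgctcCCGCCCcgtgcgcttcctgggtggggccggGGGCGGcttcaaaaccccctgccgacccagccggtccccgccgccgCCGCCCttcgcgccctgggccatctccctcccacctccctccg
TGFB2, chr1:218345086-218345385, plus strand: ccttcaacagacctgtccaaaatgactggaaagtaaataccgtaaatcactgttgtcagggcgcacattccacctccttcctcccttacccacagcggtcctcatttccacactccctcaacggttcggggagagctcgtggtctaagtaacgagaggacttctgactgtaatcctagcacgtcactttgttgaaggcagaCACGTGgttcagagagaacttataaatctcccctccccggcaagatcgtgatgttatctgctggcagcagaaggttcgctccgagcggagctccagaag
TGFBR2, chr3:30606106-30606405, plus strand: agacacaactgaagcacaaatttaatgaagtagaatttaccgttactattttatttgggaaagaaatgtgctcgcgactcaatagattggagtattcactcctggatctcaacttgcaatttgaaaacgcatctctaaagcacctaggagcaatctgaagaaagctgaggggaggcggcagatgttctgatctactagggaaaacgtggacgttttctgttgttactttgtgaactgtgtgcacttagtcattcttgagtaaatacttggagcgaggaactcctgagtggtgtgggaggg
The TGFB1 window holds 7 GC boxes, and 77.3% of its bases are G or C, more than in 94.1% of all 35116 promoters. The TGFB2 window holds 1 E-box, at -49 to -44 from the start. The TGFBR2 window, with 42.3% G or C, holds none of the 4 motifs. Among all promoters 45.0% hold a GC box and 15.8% at least 3 of them, 7.26% hold the E-box, 7.71% the AP-1 site and 0.202% the SMAD box. The 3 windows thus have no motif in common, and a match is a description only. GC boxes are as many, 7, in the window of SPTBN1, which was not called.

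TGFBR2 (ENSG00000163513, chr3:30606502-30694142, plus strand) encodes the type II receptor, which binds the ligand first. HCT116 is known as a line with unstable microsatellites and a frameshift in the A run of TGFBR2. The run and 25 bases on each side are shown from the GENCODE reference transcript, with the run in capitals, to mark where that tract lies. It is the reference and not the sequence of the line.
TGFBR2, chr3:30650355-30650414, plus strand: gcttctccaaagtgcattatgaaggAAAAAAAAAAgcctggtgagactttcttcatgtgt
The run of 10 A lies in exon 3 of 7 of one coding transcript, at coding positions 374 to 383 of 1701, and in exon 4 of 8 of the other. Of 19684 coding genes 97 (0.493%) hold a run of A at least as long in their coding sequence, where the median longest run is 5. The table counts reads per gene, so the alleles of the run were not analysed here.

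In replicates 1, 2 and 3 TGFBR2 was at 9.25, 9.48 and 11.9 FPKM in control cells and at 9.26, 9.38 and 12.5 FPKM with TGF-β. It was at 7.45, 8.00 and 9.93 FPKM with NH4Cl and at 8.04, 8.29 and 9.88 FPKM with both agents. As for TGFB1 the groups overlap through replicate 3, yet every library with NH4Cl is below its partner of the same number. Group means were 10.2 ± 1.46, 10.4 ± 1.85, 8.46 ± 1.30 and 8.73 ± 0.999 FPKM (SD, n = 3). The ratio of means was 0.829 for NH4Cl against control and 0.840 for both agents against TGF-β alone. Averaged over TGF-β, the log2 fold change was -0.23, lower in 6 of 6 pairs, by -0.31 to -0.16. Without the block the 95% interval was -0.45 to -0.01 and the adjusted p by limma 0.218. With the block the interval was -0.30 to -0.17 and the adjusted p 3.40e-04, and leaving out any 1 replicate number kept it at or below 0.0147. The value rests on 541 to 857 reads per library, with no exon base shared with another gene.

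**Figure D2:**
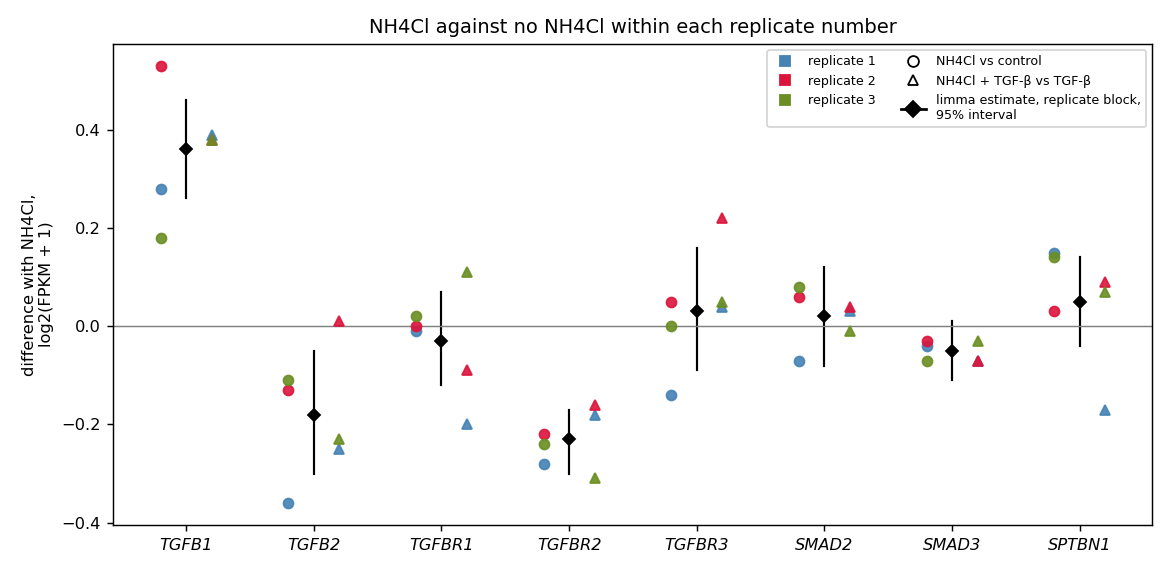
Difference in log2(FPKM + 1) with NH4Cl for the 8 tested genes: circles are NH4Cl minus control and triangles NH4Cl plus TGF-β minus TGF-β, each within 1 replicate number, and diamonds with bars are the limma estimate with the block and its 95% interval. All 6 differences of TGFB1 lie above 0 (0.18 to 0.53) and all 6 of TGFBR2 below it (-0.31 to -0.16), while those of TGFBR1 lie on both sides.

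TGFBR1 (ENSG00000106799, chr9:99104038-99154192, plus strand), the type I receptor kinase, ranged from 9.90 to 13.7 FPKM over the 12 libraries. Its group means were 12.2 ± 0.871, 12.3 ± 2.11, 12.2 ± 0.733 and 11.7 ± 1.00 FPKM (SD, n = 3), all overlapping. The NH4Cl effect averaged over TGF-β was -0.03 on the log2 scale, with 3 of 6 pairs higher and 3 lower (adjusted p by limma 0.891, and 0.667 with the block). The sign was not stable, since the effect was 0.01 with the block and without replicate 1.

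TGFBR3 (ENSG00000069702, chr1:91680343-91906335, minus strand), the co-receptor betaglycan, ranged from 0.938 to 1.29 FPKM, with 122 to 176 reads per library. Libraries with both agents lay at 1.14 to 1.29 FPKM, above those with TGF-β alone at 0.969 to 1.09. That difference was 0.10 on the log2 scale, with a ratio of means of 1.14, and did not pass the test (adjusted p by limma 0.654, and 0.397 with the block). Of the 9 tested genes among 15 receptors and co-receptors, limma called 2 with the block for NH4Cl averaged over TGF-β, TGFBR2 and the activin receptor ACVR1B, both lower, when 31.0% of all genes were called. ACVR1B fell by 0.08 on the log2 scale, in 6 of 6 pairs (adjusted p 0.0356 with the block, 0.237 without), and was not called with the block and TPM scaling (0.0647). Without the block 0 of the 9 were called, beside 6.14% of all genes, with 2 at an unadjusted p below 0.05, beside 20.9%, and the median of the 9 was -0.03.

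**Figure D3:**
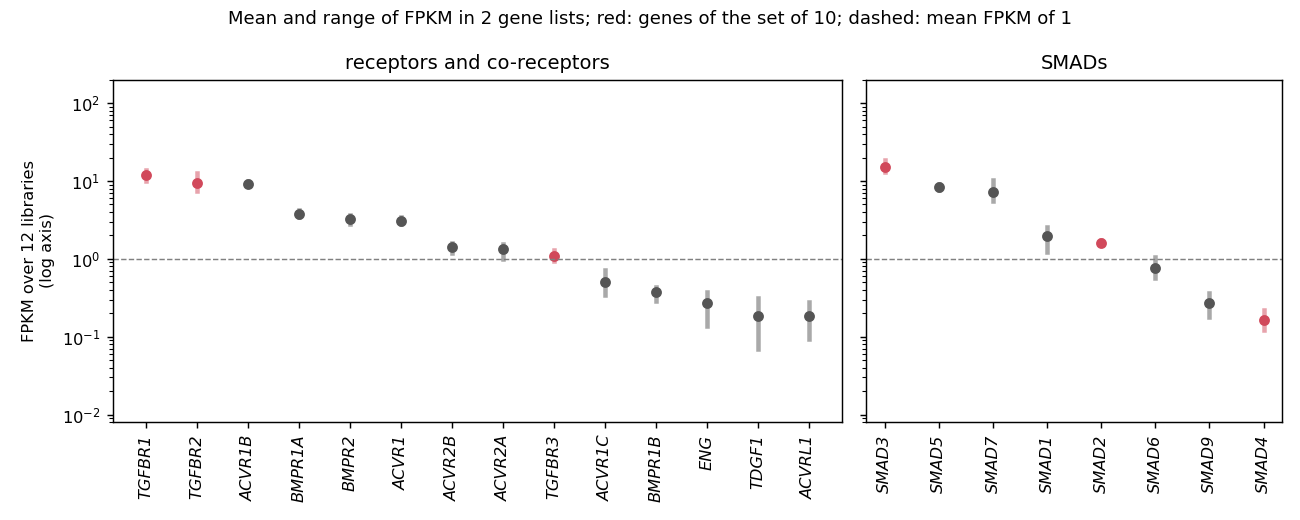
Mean FPKM over 12 libraries (points) with the lowest and highest library (bars) on a log axis, for receptors and SMADs, with genes of the set of 10 in red and a dashed line at 1 FPKM. TGFBR1 and SMAD3 lead their lists at 12.1 and 15.1 FPKM, and SMAD4 is the lowest SMAD at 0.163 FPKM.

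SMAD3 (ENSG00000166949, chr15:67063763-67195195, plus strand) carries the signal from the receptor to the nucleus and was the most abundant of the 8 SMADs. Its level was 13.7, 14.3 and 18.0 FPKM in control cells, 14.2, 13.8 and 18.5 with TGF-β, 13.3, 14.0 and 17.1 with NH4Cl, and 13.4, 13.1 and 18.2 with both agents. Replicate 3 is the highest in every group and the groups overlap. SMAD3 was lower with NH4Cl in 6 of 6 pairs, but only by -0.07 to -0.03 on the log2 scale. The averaged effect of -0.05 did not pass the test (adjusted p by limma 0.850, and 0.207 with the block), and its 95% interval with the block was -0.11 to 0.01.

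SMAD2 (ENSG00000175387, chr18:47808957-47931146, minus strand), the partner of SMAD3, had group means of 1.59 ± 0.0261, 1.62 ± 0.0750, 1.63 ± 0.128 and 1.65 ± 0.0269 FPKM (SD, n = 3). The NH4Cl effect averaged over TGF-β was 0.02 on the log2 scale (adjusted p by limma 0.846, and 0.753 with the block). Its low FPKM stands beside 834 to 1062 reads per library, more than TGFBR2 had. The exons of SMAD2 add up to 36366 bases in GENCODE, with a longest coding transcript of 34526 bases, and FPKM divides by that length. Its level relative to the other members therefore rests on this annotation.

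SMAD4 (ENSG00000141646, chr18:51028394-51085045, plus strand), the shared partner of SMAD2 and SMAD3, had the lowest level of the 10 genes. Its level was 0.221, 0.182 and 0.206 FPKM in control cells, 0.148, 0.201 and 0.142 with TGF-β, 0.193, 0.140 and 0.137 with NH4Cl, and 0.129, 0.135 and 0.121 with both agents. These values are 26 to 49 reads per library. Every library with both agents lies below every library of the other 3 groups. Summed over its 3 libraries, the control group had 130 SMAD4 reads, against 103 in the TGF-β group, 95 in the NH4Cl group and 81 where both were given. Per 1000000 reads on genes the control group had 2.67 (95% Poisson interval 2.23 to 3.17) and the TGF-β group 2.14 (1.75 to 2.60). The NH4Cl group had 2.08 (1.68 to 2.54), and cells given both had 1.68 (1.34 to 2.09). The intervals of control and both agents do not overlap, but they cover counting error only. Within replicate numbers SMAD4 was lower with NH4Cl in 6 of 6 pairs, by -0.08 to -0.02 on the log2(FPKM + 1) scale, with ratios of FPKM of 0.666 to 0.873. In limma fits of all 25733 genes with no filter, the difference between both agents and control had an unadjusted p of 0.0176 and an adjusted p of 0.336 without the block, while the fit with the block gave 0.0271 and 0.171. The NH4Cl effect averaged over TGF-β had an adjusted p of 0.342 without the block and 0.236 with it, so neither passed the test.

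The genes beside SMAD4 were well covered. ME2, 74.1 kb before it, had a mean of 3.65 FPKM, and MEX3C, 89.5 kb after it, 7.81 FPKM. Both were named after their values were seen. SMAD4 shares 967 of its 13123 exon bases (7.37%), and 687 of its 1699 coding bases (40.4%), with any other gene. AC091551.1 on the same strand, whose own level was not used here, shares the most exon bases. A mean of at least 1 FPKM was found for 50.3% of 11097 coding genes that share no exon base, 66.7% of 4820 that share up to 10%, 61.9% of 2901 that share above 10 to 50%, 20.2% of 608 that share above 50 to 90% and 0.190% of 525 that share more. Whether reads on the shared bases were dropped in counting was not tested, and the level of SMAD4 relative to other genes rests on that counting. The level of SMAD4 in this table is thus a low count of reads assigned to the gene, and what makes it low was not tested.

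Of the other SMADs, SMAD5 had 8.28, SMAD7 7.22, SMAD1 1.97, SMAD6 0.767 and SMAD9 0.272 FPKM. SMAD6 and SMAD7 are the inhibitory members. SMAD6 was under the filter, and it was higher with NH4Cl in 6 of 6 pairs, by 0.15 to 0.37 on the log2(FPKM + 1) scale, with no test. The ratio of its mean FPKM was 1.49 for NH4Cl against control and 1.58 for both agents against TGF-β alone, and in both comparisons the groups do not overlap. SMAD9, also under the filter, was at 0.351, 0.326 and 0.342 FPKM in control cells, 0.179, 0.207 and 0.204 with TGF-β, 0.283, 0.225 and 0.254 with NH4Cl, and 0.306, 0.366 and 0.226 with both agents. Its control libraries lie above all with TGF-β alone and all with NH4Cl alone, and those with both agents lie above those with TGF-β alone, so it was higher with NH4Cl in 3 of 6 pairs and lower in 3. Of the 5 tested SMADs limma called 2 with the block for NH4Cl averaged over TGF-β, both lower, and 0 without it, with 1 at an unadjusted p below 0.05. Of all genes 31.0% were called with the block and 6.14% without it, where 20.9% had an unadjusted p below 0.05. The SMADs called were SMAD1, which acts in the BMP branch, at -0.22 (adjusted p 0.0297 with the block, 0.187 without) and SMAD7 at -0.12 (0.0205 and 0.627). SMAD1 was lower in 5 of 6 pairs and SMAD7 in 6 of 6, and with the block and no filter SMAD1 was not called (0.0762).

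SPTBN1 (ENSG00000115306, chr2:54456285-54671445, plus strand) encodes βII-spectrin, a protein of the membrane skeleton that also serves the SMADs as an adaptor, and it is the protein the study places at the centre of the ammonia response. Its level was 18.6, 19.9 and 19.7 FPKM in control cells and 19.3, 19.1 and 21.1 FPKM with TGF-β. It was 20.7, 20.4 and 21.8 FPKM with NH4Cl and 17.1, 20.5 and 22.2 FPKM with both agents. The NH4Cl libraries lie above all 3 controls, while the group with both agents is the widest and spans the others. Group means were 19.4 ± 0.699, 19.8 ± 1.07, 21.0 ± 0.724 and 19.9 ± 2.57 FPKM (SD, n = 3). NH4Cl against control was 0.11 on the log2 scale (adjusted p by limma 0.757, and 0.264 with the block), with a 95% interval of -0.08 to 0.29 without the block and -0.02 to 0.24 with it. Averaged over TGF-β it was 0.05, higher in 5 of 6 pairs, with an adjusted p by limma of 0.681, and it ranged from 0.01 without replicate 3 of both agents to 0.10 without their replicate 1. It was not called with the block either. The 95% interval of that average was -0.04 to 0.14 with the block and -0.08 to 0.18 without it. With 5071 to 6965 reads per library, depth does not limit this value, and RNA levels say nothing about cleavage of the protein.

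SPTBN1 was the most abundant of 7 spectrins at a mean of 20.0 FPKM, with the alpha chain SPTAN1 at 13.7 FPKM. Of 14 tested SMAD and receptor adaptors limma called 3 with the block for NH4Cl averaged over TGF-β, 2 higher and 1 lower, and 1 without it, against 31.0% of all genes with the block and 6.14% without it. The gene called without the block was CEACAM1, a cell adhesion protein named in the title of the deposited series, at 2.57, 2.60 and 2.83 FPKM in control cells, 2.23, 2.59 and 2.70 with TGF-β, 3.18, 3.11 and 3.23 with NH4Cl, and 3.26, 3.03 and 3.38 with both agents. All 6 libraries with NH4Cl lie above all 6 without it. CEACAM1 rose by 0.23 on the log2 scale, higher in 6 of 6 pairs, with an adjusted p by limma of 0.0232 without the block and 0.00251 with it. Without the block this call was lost in 8 of 12 fits that left out 1 library, at adjusted p from 0.0510 to 0.0673, and it stayed only without control 3, TGF-β 3, or replicate 2 or 3 of both agents. It was also lost with no filter (0.0536). With the block it was lost without replicate 1 (0.0503). The others were AXIN1, a scaffold of β-catenin destruction, at 0.17 (adjusted p 0.00767 with the block, 0.108 without), and the SMAD anchor ZFYVE9 at -0.17 (0.0164 and 0.223). ZFYVE9 was at -0.07 in cells without TGF-β and -0.26 in cells with it (adjusted p by limma 0.481 and 0.0178 with the block). By limma the interaction was called for 0 of the 14 adaptors in both fits, with 0 at an unadjusted p below 0.05.

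Caspases, the proteases of programmed cell death, made up a further list. Of 6 tested, limma called 3 with the block for NH4Cl averaged over TGF-β, all lower, and 0 without it, with 0 at an unadjusted p below 0.05. Of all genes 31.0% were called with the block and 6.14% without it, where 20.9% had an unadjusted p below 0.05. The caspases called were CASP6 at -0.23 (adjusted p 0.0225 with the block), CASP2 at -0.17 (0.0296) and the initiator CASP8 at -0.10 (0.0493). None of the 3 was called with the block and no filter (0.0608, 0.0689 and 0.0815), nor CASP8 with the block and TPM scaling (0.0552).

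The remaining lists give the proteins around the SMADs, for NH4Cl averaged over TGF-β, where 31.0% of all genes with the block and 6.14% without it were called and, without it, 20.9% had an unadjusted p below 0.05. Of 16 SMAD turnover enzymes tested limma called 3 with the block and 0 without it, with 1 at an unadjusted p below 0.05. They were the ubiquitin ligases WWP2 at -0.14 and SMURF2 at -0.11 (adjusted p 0.0122 and 0.0441 with the block), and the phosphatase PPM1A at 0.11 (0.0379). Of 12 nuclear partners 4 were called with the block, 1 higher and 3 lower, and 0 without it, with 2 at an unadjusted p below 0.05. The largest were the pocket protein RBL1 at -0.21, its partner E2F5 at 0.18 and the corepressor TGIF1 at -0.15 (adjusted p 0.00642, 0.0361 and 0.00339). Both tested antagonists were called with the block, FSTL3, which binds activin, at 0.27 and the decoy receptor BAMBI at -0.11 (adjusted p 0.00160 and 0.00682), and 0 of 2 without it, with 0 at an unadjusted p below 0.05. In cells without TGF-β BAMBI was at -0.20 and FSTL3 at 0.17 (adjusted p 0.00505 and 0.105 with the block), and in cells with it they were at -0.02 and 0.37 (0.729 and 0.00379). Neither interaction passed the test by limma with the block (adjusted p 0.992 in both). Both had an unadjusted p below 0.05 with the block, 0.00375 for BAMBI and 0.0464 for FSTL3, beside 4.35% of all genes, and 0 of 2 without it, beside 0.932%. In each of these lists the called genes went in both directions. SMURF2, PPM1A and E2F5 were not called with the block and no filter (adjusted p 0.0725, 0.0645 and 0.0853). SMURF2 was also lost with TPM scaling (0.0504) and PPM1A with median centring (0.0551). The shares called with the block among turnover enzymes and nuclear partners are below and near that of all genes, so they say nothing particular about these lists.

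Early target genes show whether the pathway answered TGF-β within 1 h, and 15 were tested. For TGF-β against control limma called 1 of 15 with the block, beside 0.00810% of all genes, and 0 without it, beside 0%. At an unadjusted p below 0.05 there were 6 of 15 with the block, beside 3.42% of all genes, and 1 without it, beside 0.835%. The median of the 15 was 0.10 on the log2 scale against 0.00 for all genes. The gene called was ID1, an inhibitor of differentiation factors that also answers BMP signals, named after its values were seen. ID1 was at 26.1, 22.9 and 46.6 FPKM in control cells and at 45.4, 37.1 and 66.2 FPKM with TGF-β. It was at 21.9, 17.1 and 38.0 FPKM with NH4Cl and at 32.2, 31.0 and 54.9 FPKM with both agents. Within each replicate number ID1 was higher with TGF-β and lower with NH4Cl, although the groups overlap through replicate 3.

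ID1 rose with TGF-β by 0.65 on the log2 scale in cells without NH4Cl and by 0.62 in cells with it, higher in 6 of 6 pairs by 0.50 to 0.82. The adjusted p by limma was 0.0248 and 0.0342 with the block, and 1.000 in both without it. Neither call stayed when a replicate number was left out of the fit with the block, at adjusted p from 0.112 to 0.619 and from 0.250 to 0.694. With the block and no filter neither was called (0.251 and 0.186), and with the block and TPM scaling the second was not (0.0658). The interaction was -0.02 with an adjusted p of 0.992 with the block, and its 95% interval was -0.23 to 0.18. ID1 is the only gene called with the block for TGF-β against control among all 12341 tested. SMAD7, the inhibitory SMAD that TGF-β is known to induce, was higher with TGF-β in 6 of 6 pairs, by 0.11 to 0.35. Its fold change of 0.25 in cells without NH4Cl did not pass the test (adjusted p by limma 1.000, and 0.948 with the block). In all, 6 of the 15 early targets were higher with TGF-β in 6 of 6 pairs and 0 lower, beside 2.24% and 1.47% of all genes tested. Besides ID1 and SMAD7 these were JUNB, KLF10, PMEPA1 and TGIF1, singled out after their values were seen and not called for TGF-β against control in either fit. Their changes in cells without NH4Cl were 0.32, 0.18, 0.13 and 0.04, each with an adjusted p by limma of 1.000 in both fits. The list was chosen with earlier results known, so the count is a description.

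NH4Cl averaged over TGF-β moved more of the early targets, 10 of 15 with the block, 4 higher and 6 lower, and 2 of 15 without it, against 31.0% of all genes with the block and 6.14% without it. The 2 were TGFBI, a matrix protein named for its induction by TGF-β, and the zinc-finger factor KLF10, both lower. TGFBI fell by 0.35 on the log2 scale, in 6 of 6 pairs (adjusted p by limma 0.00508 without the block and 4.21e-04 with it), and stayed called in all 12 fits without 1 library (0.00589 to 0.0189). KLF10 fell by 0.23, in 5 of 6 pairs (0.0276 and 0.00412). That call was lost without replicate 1 or without replicate 2 of any group (0.0521 to 0.0780), and with the block without replicate 1 (0.0686) or replicate 2 (0.0582). It was also lost without the block under TPM scaling (0.0776). In the other direction went BHLHE40, a clock repressor, at 0.57, and the cell cycle inhibitor CDKN2B at 0.42, both higher in 6 of 6 pairs. Their adjusted p was 1.19e-05 and 7.79e-06 with the block, and 0.223 and 0.353 without it. The median of the 15 was 0.01, so these targets did not move in 1 direction with NH4Cl.

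**Figure D4:**
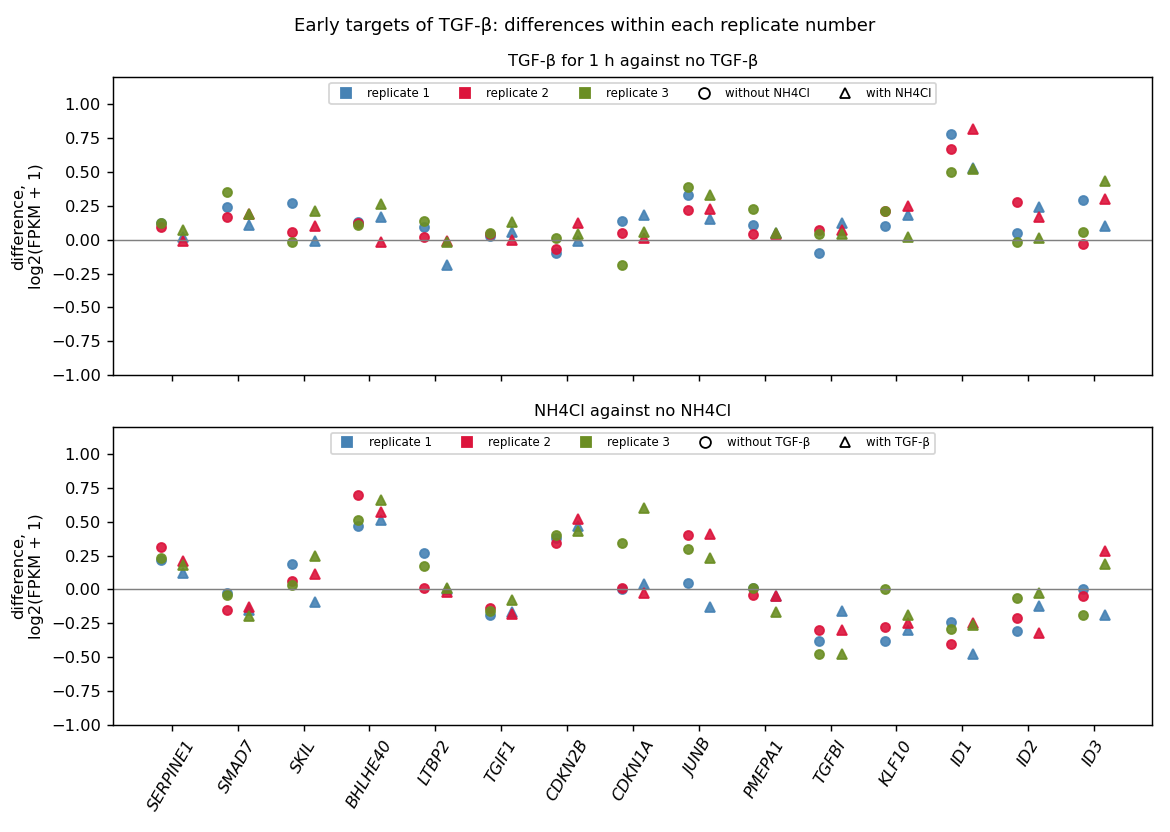
Within-replicate differences in log2(FPKM + 1) for the 15 early targets, with the effect of TGF-β in the top panel and that of NH4Cl in the bottom panel. ID1 lies at 0.50 to 0.82 with TGF-β, and with NH4Cl BHLHE40 lies at 0.47 to 0.70 and TGFBI at -0.48 to -0.16.

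The genes whose pattern was most like that of a member were taken from Pearson's r over the 12 libraries, with log2(FPKM + 1) centred within each replicate number, among 12340 other genes. For TGFB1 these were AC148477.4, LINC02437 and NECTIN4, with r of 0.996, 0.992 and 0.990. For TGFBR2 they were ACTB, ACTG1 and PELI3 (0.990, 0.985 and 0.985), the first 2 being cytoplasmic actins at 1053 and 934 FPKM. For TGFB2 they were SHQ1, TXNRD2 and UMPS (0.940, 0.931 and 0.929), and for SPTBN1 AGO2, DENND5A and CASP8AP2 (0.954, 0.946 and 0.922). The libraries are those in which the members were compared, so these values describe the pattern and carry no p.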

How the data were processed

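RNA from HCT116 cells was sequenced in 12 libraries, 3 per group. FPKM per gene are the values the authors deposited. The submitters' processing notes name Trimmomatic 0.36, STAR 2.5.2b, featureCounts of Subread 1.5.2 and DESeq2 on GRCh38, whereas the article's methods name HTSeq for counting; the RNA kit also differs between the labels (RNeasy Plus Mini) and the article (PureLink). Reads per gene were recovered from FPKM and the summed exon length in GENCODE release 29, and were whole within 0.01 for 100% of values.

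Groups came from the labels, doses and times from the article's methods. limma 3.58.1 in R 4.3.3 was fitted to log2(FPKM + 1) with 4 group means and an intensity trend, over the genes with a mean of at least 1 FPKM, adjusted by Benjamini-Hochberg over all 12341 genes in each of 7 comparisons, with a threshold of 0.05. The code was tested on simulated data. After group means were removed, the correlation across genes between libraries of the same number was 0.349 to 0.774 in 18 pairs. It was 0.349 to 0.431 for number 1, 0.446 to 0.533 for number 2 and 0.702 to 0.774 for number 3. Libraries of different numbers were not compared, and replicate 3 standing apart also makes libraries of numbers 1 and 2 correlate. These values therefore cannot show whether numbers 1 and 2 pair across groups, and the fits without and with a replicate block are both given. Alternatives were the block, TPM scaling, median centring, a pseudocount of 0.1, and a filter of 5 FPKM or none. Others were a fit with no intensity trend, a fit of only the groups compared, and leaving out each library or replicate number. Leaving out replicate 3 without the block, and the block with no filter, were chosen after seeing the data.

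The members and the 10 gene lists were chosen with earlier results of these data known. Named are the members, list genes called without the block in any comparison, and per list the 3 largest fold changes called with the block for NH4Cl averaged over TGF-β. Tables and figures used Python 3.11.15 with numpy 2.4.6, pandas 2.3.3, scipy 1.17.1 and matplotlib 3.10.9. Poisson intervals are exact at 95%. AMHR2, FST and CER1 of the lists were not analysed here. Some results of the spectrin and caspase lists are not reported here.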

Additional observations from a re-analysis of the deposited data

How the results depend on the processing

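Without the block, the count of members called by limma was 0 in all 7 comparisons, and it was 0 under every alternative without the block that left out a single library, changed the filter, the pseudocount or the scaling. Of 164 counts of members under alternatives, 132 equalled the value given and 32 moved, all in the 4 comparisons with NH4Cl against cells without it. The replicate block gave 2 for NH4Cl against control, 2 for both agents against control, 2 for both agents against TGF-β and 3 averaged over TGF-β, and changed no other count. With the block, TPM scaling gave 2, 2, 2 and 2 in the same order, median centring 2, 2, 2 and 3, and a pseudocount of 0.1 gave 2, 2, 2 and 3. The block with no filter, chosen after seeing the data, gave 2, 2, 2 and 2. With the block and 1 replicate number left out, the counts ranged from 0 to 2 for NH4Cl against control and for both agents against control, from 0 to 1 for both agents against TGF-β, and were 2 in each fit averaged over TGF-β. The 0 came from leaving out replicate 1 in the first 3 of these and also replicate 2 for NH4Cl against control. Without replicate 3 and without the block, chosen after seeing the data, the counts were 2, 1, 1 and 2. Fewer libraries stand behind these fits.

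The fold changes of single genes counted here are those for NH4Cl averaged over TGF-β, with the effects of TGF-β on ID1 and SMAD7. Of these 919 under alternatives, 725 kept their direction and side of the threshold, 167 passed it and 21 missed it where the fit without the block did otherwise, and 6 changed sign. TGFBR1 became 0.01 with the block without replicate 1, 0.0043 without TGF-β replicate 1 and 0.01 without TGF-β replicate 2. With single libraries left out, TGFBR1 ranged from -0.10 to 0.01 and SMAD3 from -0.12 to 0.01. TGFBR3 became -0.01 with the block without replicate 2. SMAD3 became 0.0071 without control replicate 3 and 0.01 without TGF-β replicate 3. None of these passed the test, and the cause was not tested. In the other 6 comparisons 29 of 48 member values changed sign in some fit without 1 library, among them TGFB1 for TGF-β against control (-0.26 to 0.25).

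TGFB1 and TGFBR2 kept their direction for NH4Cl averaged over TGF-β in all fits, with TGFB1 between 0.23 and 0.49 and TGFBR2 between -0.29 and -0.17 when 1 library was left out. No scaling moved the median of all genes by more than 0.015 on the log2 scale, but TPM scaling without the block lowered the genes called from 117 to 54 for both agents against control, from 127 to 58 for both against TGF-β and from 758 to 491 averaged. Of the averaged calls 60.9% were higher, and 74.9% with TPM. For NH4Cl against control 70.2% of 47 were higher, and 58.9% of 56 with median centring. Depth limits SMAD4 at 26 to 49 reads, LTBP1 at 70 to 139, TGFB2 at 108 to 179 and TGFBR3 at 122 to 176 per library. With 3 libraries per group, and replicate 3 apart, the fit without the block has wide intervals. The table holds RNA per gene, so transcripts, alleles and protein were not analysed here.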
